A study of Arabidopsis thaliana with 35 samples.

Results

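Pectin methylesterases cut methyl groups from homogalacturonan, the main pectin of the plant cell wall. Demethylated pectin can bind calcium and stiffen, or become open to pectate lyases and polygalacturonases, so these enzymes set how firm or how extensible a wall is. In pollen they act on the wall of the pollen tube, whose tip must stay soft enough to grow and firm enough not to burst. VANGUARD1 (VGD1) is required in Arabidopsis for normal growth of the pollen tube through the style, and PPME1 for the shape and growth of the tube.

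The genes described here are 10 pectin methylesterase genes taken by their identifiers: VGD1 (AT2G47040), its relatives VGDH1 (AT2G47030) and VGDH2 (AT3G62170), PPME1 (AT1G69940), the tandem genes AT5G07410, AT5G07420 and AT5G07430, and AT2G26450, AT3G05610 and AT5G49180. They are 10 of the 66429 features counted in each library. The list was drawn up with VGD1 already known as the most abundant feature, so its rank is a description and not a finding.

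The data are 35 RNA-seq libraries from polyadenylated transcripts of mature Arabidopsis pollen in the Col0 ecotype. Mature pollen is the male gametophyte, a vegetative cell that forms the tube and encloses the sperm cells. There were 5 libraries each of wild-type, mbd5 mbd6, sln, acd15.5, acd21.4, acd15.5 acd21.4 and acd15.5 acd21.4 sln, of which 2 per genotype belonged to batch 1 and 3 to batch 2. MBD5 and MBD6 are readers of methylated DNA, SLN is a J-domain protein and ACD15.5 and ACD21.4 carry an alpha-crystallin domain, and the study's title links them to silencing of genes and transposable elements. The labels name no alleles, treatment or plant age. Whether the replicates are separate plantings is not stated, so a p-value here reflects the variation among libraries, which may be partly technical.

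Total counts were 9267958 to 22208090 per library (median 13847738). SLN transcripts (AT5G37380) had 54 to 67 counts in the wild-type libraries, 0 to 9 in sln and 3 in every acd15.5 acd21.4 sln library, and MBD6 (AT5G59380) had 8 to 16 in wild-type and 0 to 2 in mbd5 mbd6. MBD5, ACD15.5 and ACD21.4 had at most 4 counts in any library, so they could not check the labels of their mutants. The gene identifiers are background knowledge and not in the labels. All 13 vegetative cell and pollen tube markers were detected, with a summed level of 14009 to 21684 CPM (counts per 1000000 counts of the tested features, scaled by TMM, a factor that corrects for differences in composition between libraries). The 6 sperm cell markers that could be measured summed to 205 to 264 CPM. Of the tapetum and anther wall markers A9, MS1 and LTP12 had no count and the list summed to at most 0.654 CPM, while 7 markers of green tissue summed to 4.44 to 31.8 CPM.

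The members fell into short and long proteins. The long ones carry, as in other plants, a pro-region that resembles a pectin methylesterase inhibitor ahead of the catalytic domain. PPME1, AT5G07410, AT5G07420 and AT5G07430 encode proteins of 361 residues from 5 coding exons each. The other 6 encode 571 residues (AT5G49180) to 669 residues (AT3G05610). VGDH1 lies at chr2:19324134-19326484 and VGD1 at chr2:19327853-19330197, both on the minus strand of TAIR10.1, with 1368 bases and no annotated gene between them. On chromosome 5, AT5G07410 (chr5:2345758-2347565), AT5G07420 (chr5:2349452-2351613) and AT5G07430 (chr5:2352436-2354338) stand in a row on the plus strand. Between AT5G07420 and AT5G07430 lies 1 annotated gene, AT5G01395. PPME1 is on chromosome 1 (chr1:26343275-26345058), VGDH2 on chromosome 3 (chr3:23016174-23018509), AT3G05610 on chromosome 3 (chr3:1625528-1628175), AT2G26450 on chromosome 2 (chr2:11251040-11253612) and AT5G49180 on chromosome 5 (chr5:19940462-19943015). No other annotated gene overlaps any of them.

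A pectin methylesterase carries its 2 catalytic aspartates in short conserved stretches, spelled QDTL and DFIFG in most members. The DNA from the first stretch to the second is shown for 6 members, because it shows how close the paralogs are whose reads a counter could confuse, and which members depart from the usual letters. Each run is 81 bases of coding strand from RefSeq, assembly TAIR10.1, in 1 exon, and capitals mark the codons of both stretches. VGD1 is at chr2:19328660-19328740 (minus), VGDH1 at chr2:19324889-19324969 (minus), PPME1 at chr1:26344132-26344212 (minus), AT5G07410 at chr5:2346613-2346693 (plus), AT5G07420 at chr5:2350526-2350606 (plus) and AT3G05610 at chr3:1626662-1626742 (minus).
VGD1: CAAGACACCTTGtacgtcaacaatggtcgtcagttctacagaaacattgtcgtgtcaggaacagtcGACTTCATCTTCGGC
VGDH1: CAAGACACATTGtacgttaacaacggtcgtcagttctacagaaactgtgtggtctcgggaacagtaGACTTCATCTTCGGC
PPME1: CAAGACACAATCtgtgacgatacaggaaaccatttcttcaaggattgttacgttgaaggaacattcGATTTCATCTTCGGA
AT5G07410: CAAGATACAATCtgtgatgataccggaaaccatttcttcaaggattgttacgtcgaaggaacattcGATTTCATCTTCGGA
AT5G07420: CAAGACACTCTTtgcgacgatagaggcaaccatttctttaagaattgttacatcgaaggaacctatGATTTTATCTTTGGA
AT3G05610: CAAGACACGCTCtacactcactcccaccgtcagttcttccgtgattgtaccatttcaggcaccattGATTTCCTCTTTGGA

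VGD1 and VGDH1 differed at 9 of these 81 bases and at 1 of 27 residues, and VGD1 and VGDH2 at 14 bases and 0 residues. PPME1 and AT5G07410 differed at 4 bases and 0 residues, and both read QDTI in place of QDTL. AT3G05610 reads DFLFG in place of DFIFG. Over the whole protein VGD1 was 87.9% identical to VGDH1, 75.1% to VGDH2 and 33.5% to PPME1, and PPME1 was 96.7% identical to AT5G07410. The longest run of identical coding bases was 74 between VGD1 and VGDH1 and 89 between PPME1 and AT5G07410. Of all 50-base words of the transcript, 2.78% for VGD1, 2.77% for VGDH1, 6.07% for PPME1 and 5.96% for AT5G07410 occurred elsewhere in the genome, and 0 for the other 6 members. The deposited tables list 0 reads as aligned to more than 1 place. The read length is not given in the sources used here, so how many reads of these pairs were set aside or split by the authors' counting cannot be computed.

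VGD1 was the most abundant feature in 35 of 35 libraries and took 1.02 ± 0.0857% of all counts (SD, n = 35). VGDH1 ranked between 4 and 7, AT3G05610 between 7 and 12 and VGDH2 between 16 and 23. AT2G26450, AT5G07430 and AT5G07410 had ranks between 26 and 69, PPME1 between 141 and 222 and AT5G07420 between 444 and 632. The 10 members together took 3.32 to 4.29% of all counts (median 4.02%). They were 87.1 to 90.5% of the counts of 58 pectin methylesterase genes, the members included. Of these, 56 were found because their protein holds most of the conserved stretches QDTL, DFIFG and GRPW. PPME1 and AT5G07410 do not pass that rule and were added as members. The rule can miss other genes of the family too, so the share is only of the genes found.

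AT5G49180 was barely detected. It had 1, 4, 1, 1 and 5 counts in the wild-type libraries and 65 counts in all 35 libraries together, with 0 to 5 in each. No genotype stood apart from the others. Its level of 0.132 ± 0.0969 CPM (SD, n = 35) was too low for the test, so 9 of the 10 members were tested.

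Levels were set against each other per kb of exon. VGD1 had 4577 ± 672 CPM per kb (SD, n = 35) and VGDH1 3050 ± 392. AT5G07430 followed with 2592 ± 351 CPM per kb, AT3G05610 with 2157 ± 253, VGDH2 with 2054 ± 246 and AT5G07410 with 2024 ± 306. AT2G26450 had 1749 ± 174 CPM per kb, PPME1 953 ± 116 and AT5G07420 261 ± 34.7. The order of neighbours held in 35 of 35 libraries for 7 of the 9 steps. AT3G05610 was above VGDH2 in 32 libraries and VGDH2 above AT5G07410 in 22, so the order of these 3 was not fixed. The ranges of neighbours over the 35 libraries overlapped from VGD1 down to AT2G26450 and did not overlap below it. Within the chromosome 5 row the 2 outer genes were abundant and the middle gene, AT5G07420, was not.

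**Figure D1:**
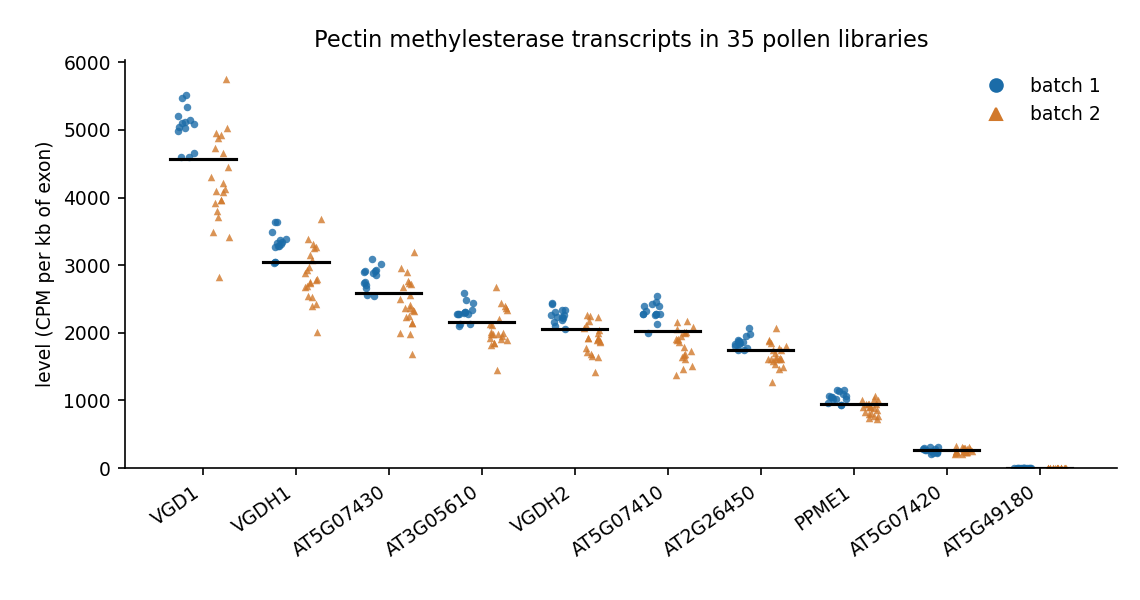
Level of each of the 10 genes in CPM per kb of exon (y axis, linear), 1 point per library, circles for batch 1 and triangles for batch 2, with a line at the mean of 35 libraries. VGD1 lies highest at a mean of 4577, AT5G07420 stands at 261 and AT5G49180 at the bottom, and the points of the batches overlap for every gene.

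The first comparison asked whether loss of the methyl-DNA readers or their partners changed these transcripts in pollen. The wild-type libraries had 12047, 11621, 10523, 8936 and 9716 CPM of VGD1 (replicates 1 to 5, of which 1 and 2 are batch 1). The mbd5 mbd6 libraries had 11520, 12471, 11111, 8862 and 8384 CPM. In both genotypes the batch 1 libraries were the highest, and the groups overlapped throughout. In sln VGD1 had 10507, 11487, 9249, 9208 and 6392 CPM, and in acd15.5 11394, 10374, 7885, 8963 and 9320 CPM. The fifth sln library was the lowest of all 35, and it was also the library with the most counts. In acd21.4 VGD1 had 11240, 11347, 11172, 10676 and 11025 CPM, the narrowest spread of any genotype. In acd15.5 acd21.4 it had 11769, 11544, 10040, 7730 and 9522 CPM, and in acd15.5 acd21.4 sln 10385, 12349, 11363, 12977 and 8574 CPM. Every mutant overlapped with wild-type.

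Against wild-type, at 10569 ± 1293 CPM (SD, n = 5), the log2 change of VGD1 was between -0.18 (SE 0.10) in sln and 0.08 (SE 0.10) in acd15.5 acd21.4 sln, and no mutant passed the test (lowest adjusted p = 0.324, in sln, edgeR quasi-likelihood test). Without the fifth sln library, the one lowest in VGD1, the change in sln was -0.08. Leaving out the lowest library raises the mean of its group in any case. VGDH1 kept to the same range, with log2 changes from -0.16 in sln to 0.08 in acd15.5 acd21.4 sln and none called.

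**Figure D2:**
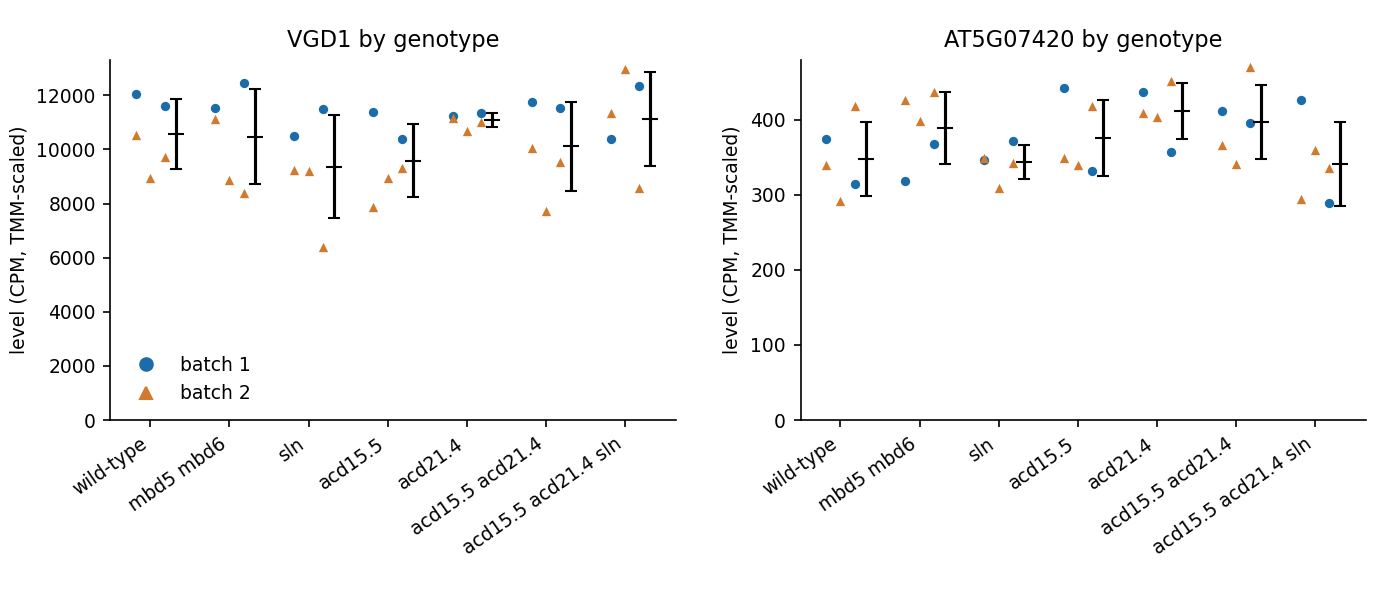
Level in TMM-scaled CPM (y axis from 0) of VGD1 and AT5G07420 in each genotype, 1 point per library, circles for batch 1 and triangles for batch 2, with the mean and SD (n = 5) beside them. The VGD1 points of all genotypes overlap between 6392 and 12977 CPM, and those of AT5G07420 between 290 and 471 CPM.

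None of the 9 tested members was called in any of the 6 mutants, 0 of 54 comparisons at an adjusted p under 0.05 in edgeR. At an unadjusted p under 0.05 there were 3 of 54, against 15.9% of 72636 comparisons over all features, and DESeq2 called 0. The lower share is no measure of response, because most members moved together and varied more than the median abundant feature. With genotype and batch removed, the residual SD in log2 was 0.175 for VGD1 and 0.114 for AT2G26450, the smallest. The median was 0.0969 over the 520 features at least as abundant as AT5G07420, the lowest tested member. These features were not matched to the level of each member. Over all 12106 features tested, the share called was 5.53% in mbd5 mbd6, 5.65% in sln, 4.46% in acd15.5, 4.67% in acd21.4, 4.88% in acd15.5 acd21.4 and 6.19% in acd15.5 acd21.4 sln. The members' log2 changes were between -0.18 and 0.24, and all their 95% intervals lay between -0.38 and 0.48, which is 0.767-fold to 1.39-fold. The median of the 9 members was -0.14 in sln and -0.10 in acd15.5, against 0.01 and 0.00 over all features. It was 0.00 in mbd5 mbd6, 0.09 in acd21.4, -0.04 in acd15.5 acd21.4 and 0.06 in acd15.5 acd21.4 sln. These comparisons share the wild-type libraries. With the total count of the library added to the fit, as described below, the members' log2 changes lay between -0.10 and 0.23. The median of the 13 vegetative cell and pollen tube markers was -0.12 in sln and -0.08 in acd15.5, and its part in the members' values was not tested.

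The 3 lowest unadjusted p-values belonged to AT3G05610, PPME1 and AT5G07420. AT3G05610, a long pectin methylesterase with a pro-region, stood at 6337, 5841, 5455, 5076 and 5100 CPM in the wild-type libraries. In the sln libraries it stood at 5448, 5890, 4885, 4851 and 3688 CPM. The sln libraries of batch 2 lay below all wild-type libraries and those of batch 1 among them. Its log2 change was -0.17 (SE 0.08, unadjusted p = 0.0421, adjusted p = 0.233 in edgeR), which was not called. PPME1 stood at 1513, 1342, 1240, 1112 and 1378 CPM in the wild-type libraries and at 1639, 1468, 1464, 1378 and 1452 CPM in those of acd21.4, with overlap. Its log2 change there was 0.17 (SE 0.08, adjusted p = 0.309 in edgeR). AT5G07420 stood at 375, 314, 340, 292 and 418 CPM in the wild-type libraries and at 438, 357, 409, 404 and 452 CPM in those of acd21.4, also with overlap. Its log2 change there was 0.24 (SE 0.11, adjusted p = 0.339 in edgeR), the largest of the 54.

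**Figure D3:**
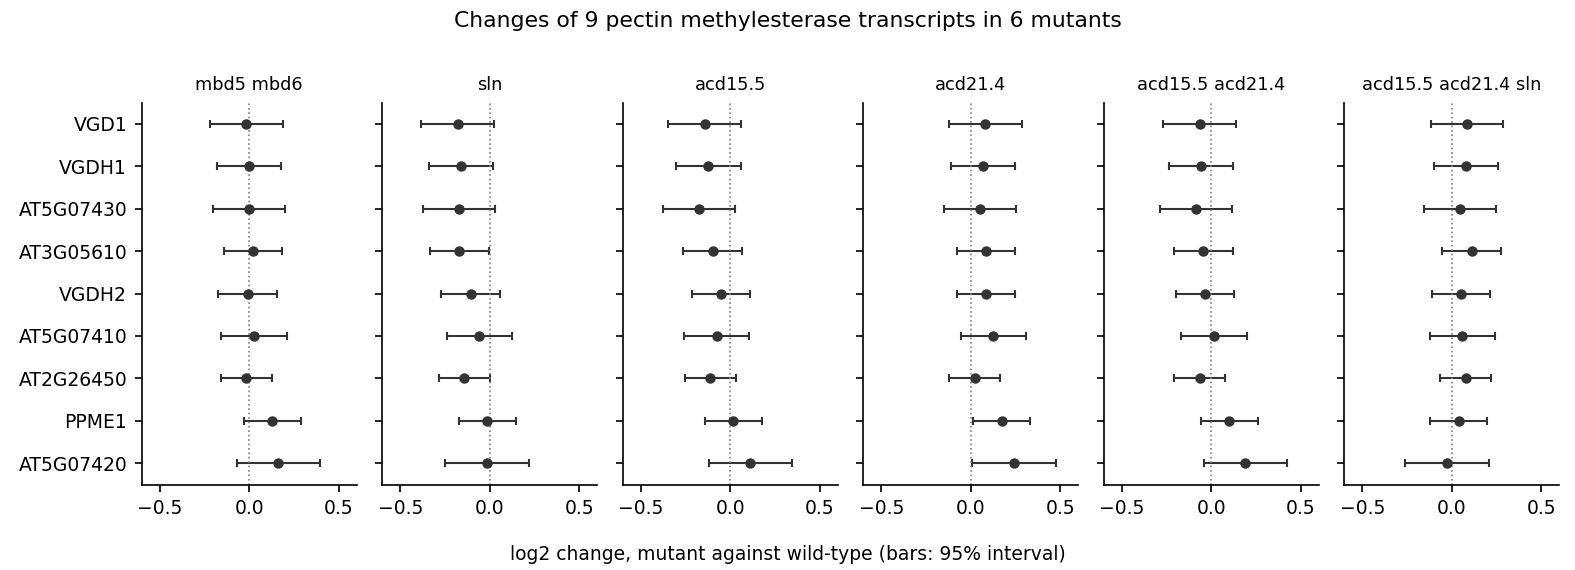
Log2 change of the 9 tested genes (rows) in each mutant against wild-type (panels), points with 95% intervals from the edgeR fit, dotted line at no change. All points lie between -0.18 and 0.24.

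A single test for any difference among the 7 genotypes called 0 of the 9 members, where it called 9.8% of all features. At an unadjusted p under 0.05 there were 2 of 9, AT3G05610 (adjusted p = 0.112) and AT2G26450 (adjusted p = 0.203), against 23.5% of all features. AT3G05610 had a mean of 4952 ± 828 CPM in sln, the lowest genotype, and 5985 ± 773 CPM in acd15.5 acd21.4 sln, the highest (SD, n = 5), a ratio of 1.21. That call depended on the setting. AT3G05610 passed with scaling by total counts alone (adjusted p = 0.0494) and without the first acd15.5 acd21.4 sln library (adjusted p = 0.0308), and AT2G26450 passed when no low-count filter was applied (adjusted p = 0.000425).

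Of all counts, the members took 3.96 ± 0.212% in wild-type (SD, n = 5). The lowest mean was 3.83 ± 0.324% in sln and the highest 4.09 ± 0.0817% in acd21.4. Between them lay acd15.5 at 3.87 ± 0.244%, acd15.5 acd21.4 at 3.94 ± 0.278%, mbd5 mbd6 at 3.96 ± 0.284% and acd15.5 acd21.4 sln at 4.03 ± 0.258%. By batch the share was 4.15 ± 0.0864% in batch 1 (SD, n = 14) and 3.82 ± 0.220% in batch 2 (SD, n = 21).

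The ratio of VGD1 to VGDH1 counts inside a library does not depend on scaling between libraries. Over all libraries it was 1.40 to 1.56, and in wild-type its log2 was 0.59 ± 0.0311 (SD, n = 5). The log2 ratio differed from wild-type by -0.02 in sln, the largest difference. No mutant passed an exact two-sided permutation test shuffled regardless of batch (adjusted p = 0.771 to 0.810 over 6 comparisons). The smallest unadjusted p that 5 against 5 allows is 0.00794. This ratio also differed between batches, as given below, which widens the spread in that test. With shuffling within batch, no mutant passed either (permutation test, adjusted p = 0.56 to 0.867). AT5G07410 had 1.87 to 2.44 times the counts of PPME1. AT5G07430 had 7.20 to 15.3 times those of its neighbour AT5G07420.

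Most members differed between the batches. AT5G07410 had a lowest, median and highest level of 2928, 3357 and 3744 CPM in the 14 libraries of batch 1 and of 2020, 2791 and 3201 CPM in the 21 of batch 2. VGD1 had 10374, 11504 and 12471 CPM in batch 1 and 6392, 9320 and 12977 CPM in batch 2. The ranges overlapped, but the means of VGD1, VGDH1, PPME1, AT5G07410, VGDH2 and AT2G26450 were lower in batch 2 in 7 of 7 genotypes, and those of AT5G07430 and AT3G05610 in 6 of 7.

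In edgeR 8 of the 9 tested members were lower in batch 2 and none was higher. Over all features 17.2% were called between batches and 8.86% were lower in batch 2. The largest change was that of AT5G07410, at log2 -0.34 (SE 0.05, adjusted p = 1.19e-05), and VGD1 changed by -0.26 (SE 0.05, adjusted p = 0.00107). PPME1 and VGDH2 each changed by -0.23, VGDH1 and AT5G07430 each by -0.22, AT3G05610 by -0.17 and AT2G26450 by -0.16. AT5G07420 was not called. It had a lowest, median and highest level of 290, 370 and 442 CPM in batch 1 and of 292, 360 and 471 CPM in batch 2, and a log2 change of 0.01 (SE 0.06, 95% interval -0.12 to 0.14).

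Ratios of members inside libraries were also compared between batches, with pairs chosen after their values were seen. Their p-values cover the 3 ratios and not that choice, so they describe these values and are no separate support. The log2 ratio of AT5G07430 to AT5G07420 was 3.49 ± 0.221 in batch 1 (SD, n = 14) and 3.26 ± 0.255 in batch 2 (SD, n = 21), lower in 7 of 7 genotypes (permutation within genotypes, two-sided, adjusted p = 0.006 over 3 ratios). That of AT5G07410 to PPME1 was 1.17 ± 0.0526 and 1.06 ± 0.0974, lower in 7 of 7 genotypes (adjusted p = 0.00091), and that of VGD1 to VGDH1 0.60 ± 0.0126 and 0.56 ± 0.0352, lower in 6 of 7 genotypes (adjusted p = 0.00024). What a batch shares, such as planting, harvest or sequencing, is not in the labels. Of the marker lists, 7 of 13 vegetative cell and pollen tube markers were lower in batch 2 and 1 higher, and 5 of 6 sperm cell markers were higher. Over all 12106 features 1072 were lower in batch 2 and 1012 higher. The part of cell composition or of RNA per cell in these differences was not tested, and in bulk RNA fewer cells of a type and less RNA per cell cannot be told apart.

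The members also varied with the total counts of the library. VGD1 fell as the total rose, with Pearson r = -0.79 and Spearman rho = -0.71 over 35 libraries (permutation p = 1e-05 for each, the smallest that 100000 shuffles can give). The relation held within batch 1 (r = -0.62) and batch 2 (r = -0.90), and without the 2 libraries farthest from the median total, the fifth ones of sln and acd21.4 (r = -0.77). Of 9 such correlations, adjusted together, r was -0.86 for AT5G07430, -0.81 for AT3G05610, -0.80 for AT2G26450, -0.79 for VGDH1, -0.69 for VGDH2 and -0.62 for AT5G07410 (permutation test, adjusted p at most 2.57e-05). Within batch 1 they were weaker, at -0.77, -0.43, -0.57, -0.60, -0.33 and 0.06 in the same order. Within batch 2 they lay between -0.95 and -0.84. PPME1 had r = -0.49 (adjusted p = 0.00316) but 0.25 within batch 1, and rho = -0.34 (adjusted p = 0.0519). AT5G07420 had r = -0.20 (adjusted p = 0.245). Over all 12106 features the median r was 0.05, and 1.56% lay at or below VGD1.

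The TMM factor itself rose with the total (r = 0.84), and the share of unscaled counts in VGD1 fell with it too (r = -0.72). With the log2 total count added to the fit, 0 members were called in any mutant (lowest adjusted p = 0.233 in edgeR), 8 were still lower in batch 2, and 7 fell with the total. The members' log2 changes against wild-type then lay between -0.10 and 0.23, against -0.18 and 0.24 without the total. Per SD of the log2 total the change was -0.16 (SE 0.02) for VGD1 and -0.03 (SE 0.04) for AT5G07420. This fit was chosen after the data were seen, and what links the total to these levels was not tested.

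**Figure D4:**
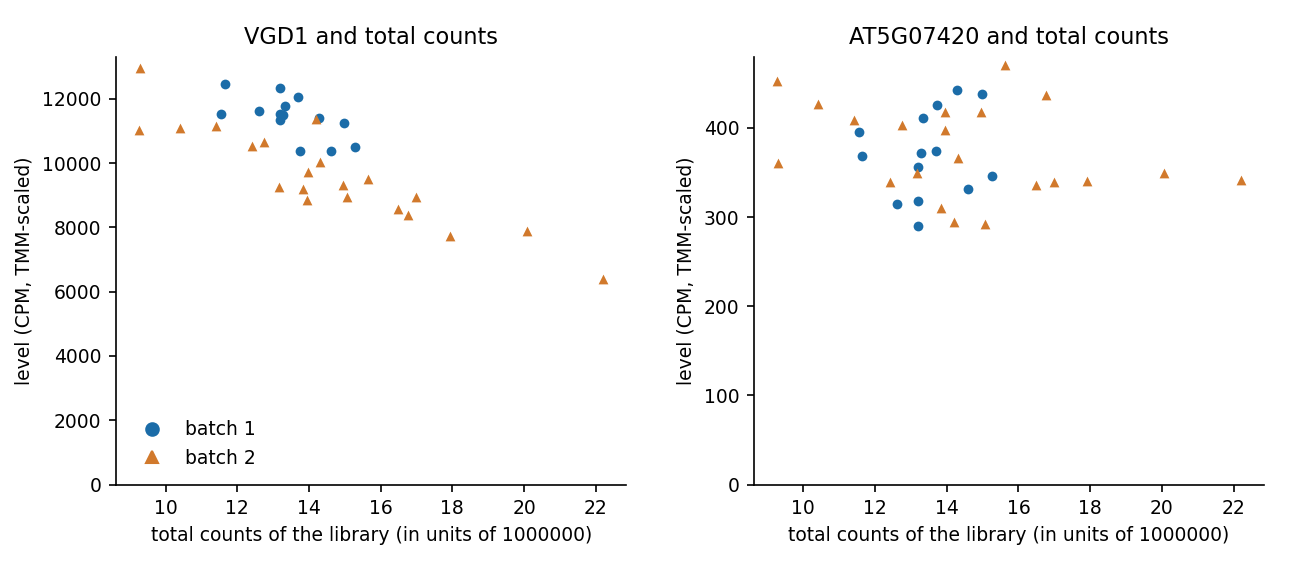
Level in TMM-scaled CPM (y axis from 0) against total counts of the library in units of 1000000 counts (x axis) for VGD1 and AT5G07420, 1 point per library, circles for batch 1 and triangles for batch 2. VGD1 falls with the total (r = -0.79) and AT5G07420 shows no clear slope (r = -0.20).

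With genotype and batch removed, 6 members moved as a block. VGD1 had r = 0.99 with VGDH1 and with AT2G26450, 0.98 with AT5G07430 and 0.96 with VGDH2 and AT3G05610. AT5G07410 followed less closely (r = 0.87) and PPME1 less again (r = 0.57), although these 2 genes had r = 0.87 with each other. AT5G07420 had r = 0.10 with VGD1 and r = 0.16 with its abundant neighbour AT5G07430, and its highest value was with PPME1 (r = 0.75). These are descriptions over 35 libraries that share the dependence on total counts given above, and the near-identical pairs may also share reads.

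**Figure D5:**
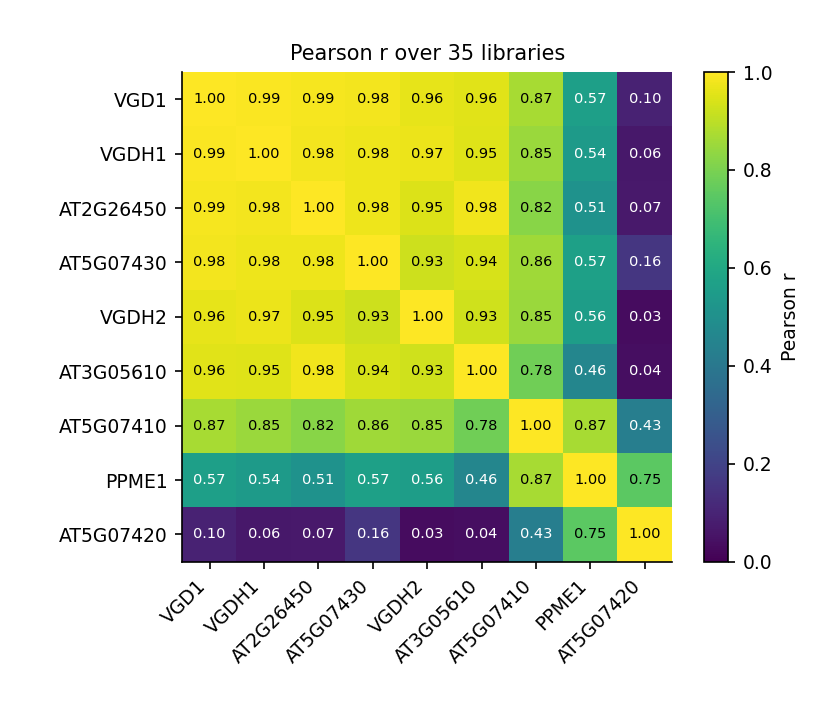
Pearson r between the log2 levels of the 9 tested genes over 35 libraries with genotype and batch means removed, colour from 0 to 1 with the value written in each cell. VGD1, VGDH1, AT2G26450, AT5G07430, VGDH2 and AT3G05610 have values from 0.93 to 0.99 among themselves, and AT5G07420 has 0.75 with PPME1, 0.43 with AT5G07410 and at most 0.16 with those 6.

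The features whose pattern was most like that of VGD1, among 4595 features with a mean of at least 10 CPM and with the batch mean removed, were VGDH1 (r = 0.994), sks13 (AT3G13400, a SKU5-like protein, r = 0.988), the peroxidase family gene AT5G47000 (r = 0.987), HVA22J (AT2G36020, r = 0.984) and the glyoxal oxidase-related gene AT5G19580 (r = 0.984). All are over 35 libraries, and these values also hold the dependence of VGD1 on total counts. Such values were common, since VGDH2 at place 45 still had r = 0.96.

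The promoters of the members that moved together were searched for short motifs. The 300 bases before the annotated start are printed for 4 members, from RefSeq, TAIR10.1, with capitals where CTA, any 4 bases and TAG follow each other. This pattern, which reads the same on both strands, covers the MEF2-type CArG boxes that MIKC* MADS proteins of pollen bind, but does not limit the 4 middle letters to A and T. VGD1 is at chr2:19330198-19330497 (minus), VGDH2 at chr3:23018510-23018809 (minus), VGDH1 at chr2:19326485-19326784 (minus) and AT5G49180 at chr5:19943016-19943315 (minus). The first pair shows a shared match, VGDH1 the paralog without one, and AT5G49180 the gene with hardly any transcript.
VGD1: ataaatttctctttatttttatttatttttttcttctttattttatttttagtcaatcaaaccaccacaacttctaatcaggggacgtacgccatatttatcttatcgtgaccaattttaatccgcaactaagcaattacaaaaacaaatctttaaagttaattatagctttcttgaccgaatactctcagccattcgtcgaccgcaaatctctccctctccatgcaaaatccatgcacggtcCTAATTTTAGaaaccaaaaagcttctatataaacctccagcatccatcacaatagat
VGDH2: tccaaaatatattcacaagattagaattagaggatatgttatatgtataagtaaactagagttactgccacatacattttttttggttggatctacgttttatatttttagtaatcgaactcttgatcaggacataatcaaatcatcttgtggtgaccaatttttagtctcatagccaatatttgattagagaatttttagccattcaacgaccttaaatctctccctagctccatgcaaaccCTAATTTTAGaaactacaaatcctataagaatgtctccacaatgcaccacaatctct
VGDH1: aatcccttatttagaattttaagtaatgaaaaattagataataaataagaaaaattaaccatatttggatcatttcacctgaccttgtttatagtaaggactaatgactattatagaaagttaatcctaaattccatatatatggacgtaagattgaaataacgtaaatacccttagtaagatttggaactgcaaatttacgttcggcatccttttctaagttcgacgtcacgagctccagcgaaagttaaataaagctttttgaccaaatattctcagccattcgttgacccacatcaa
AT5G49180: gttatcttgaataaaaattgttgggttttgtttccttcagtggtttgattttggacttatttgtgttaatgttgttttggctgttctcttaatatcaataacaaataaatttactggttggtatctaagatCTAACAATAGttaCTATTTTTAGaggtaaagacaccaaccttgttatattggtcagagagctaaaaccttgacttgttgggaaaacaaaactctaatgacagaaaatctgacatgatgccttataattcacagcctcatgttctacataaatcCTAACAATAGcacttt

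CTAATTTTAG began 57 bases before the start in both VGD1 and VGDH2. AT2G26450 had CTAAATTTAG 61 bases before its start and AT5G07430 had CTATAGATAG at 291 bases. In all 5 of 10 members had a match, against 6.92% of 27443 promoters. AT5G49180 had 3 matches and VGDH1, at r = 0.99 with VGD1, had none. By this loose pattern, genes with and without a match stood at both ends of the levels. Only 1 match of AT5G49180 had just A and T as middle letters, and its others held a C. The match of AT5G07430 held a G, while those of VGD1, VGDH2 and AT2G26450 had just A and T. The share of all promoters under that stricter limit was not computed. The promoters of VGD1 and VGDH1 were 53.4% identical over 283 aligned bases. AGAAA and GTGA, motifs of pollen promoters in tomato, were searched on both strands and stood in 10 and 9 members, but also in 87.3% and 83.2% of all promoters. A match is a match of letters and not a shown binding site.

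Of the 48 other genes found by the rule for the pectin methylesterase family, 37 were under 1 CPM. AT5G27870 was the most abundant (2945 ± 275 CPM, 1158 CPM per kb), followed by AT3G06830 (745 ± 62.2 CPM) and AT4G33230 (686 ± 41.1 CPM). None of the 11 that were tested was called in any mutant. Between batches 4 were lower in batch 2 and 1 higher.

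Pectin methylesterase inhibitors bind these enzymes and block them, and the list here, taken by product name, also holds related invertase inhibitors. Of its 77 genes 24 were tested. The only call was PMEI2 (AT3G17220), higher in sln (log2 1.08, adjusted p = 0.00538 in edgeR, at 0.562 CPM in wild-type). The most abundant was AT2G47050 at 3482 ± 490 CPM. It is the next gene beyond VGD1 on chromosome 2, with 1347 bases and no gene between them. With the batch mean removed it had r = 0.96 with VGD1, but so high a value was not particular to the neighbour. On other chromosomes AT5G50030 had r = 0.97, AT1G10770 0.91 and the polygalacturonase gene PGA4 0.98. VGDH2, at r = 0.96, was only at place 45 among the features most like VGD1. AT5G50030 had 2223 ± 303 CPM and AT1G10770 2168 ± 306 CPM. Between batches 7 were lower in batch 2 and 0 higher. Of 4 inhibitors taken by identifier 3 were tested. PMEI1 stood at 1396 ± 178 CPM and was not called, and PMEI2 is the gene given above. AT1G62760 was lower in sln, acd15.5, acd21.4 and acd15.5 acd21.4 sln (log2 -1.12 to -2.24, at 1.97 CPM in wild-type).

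Some enzymes that cut demethylated pectin were abundant too. Of 6 pectate lyases by product name 5 were tested, and AT3G01270 stood at 7182 ± 1023 CPM (3741 CPM per kb), AT59 (AT1G14420) at 3778 ± 404 and AT5G15110 at 2030 ± 212. None of these was called in a mutant, while AT1G67750, at 4.47 ± 0.994 CPM in wild-type (SD, n = 5), was called higher in all 6 (log2 1.13 in sln and 6.94 to 7.34 in the others). It was also the only call among 6 tested of 7 pectate lyases taken by identifier. Of 8 genes with polygalacturonase in the product name, inhibitors included, 3 were tested and none was called in a mutant. PGA4 (AT1G02790) stood at 5396 ± 794 CPM. PG2 (AT1G70370), at 7.69 ± 1.03 CPM, and AT5G23390, named as a polygalacturonase inhibitor, at 2.02 ± 0.406 CPM, were low. Of 9 polygalacturonases taken by identifier 6 were tested and none was called in a mutant, and AT3G07820 (4906 ± 679 CPM) and AT3G07850 (4563 ± 726 CPM) were among them. Between batches 4 of the 5 pectate lyases and 5 of these 6 polygalacturonases were lower in batch 2, as most of the esterases were. Of the 3 tested by the polygalacturonase product name 1 was lower, and over all features 8.86% were. Of 11 genes of homogalacturonan synthesis 8 were tested and none was called in a mutant. The highest, the galacturonosyltransferases GAUT14 (331 ± 17.2 CPM), GAUT13 (238 ± 13.9) and GAUT1 (31.3 ± 2.24), were at 124 CPM per kb or less, against 4577 for VGD1.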

How the data were processed

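Per the labels, poly(A) RNA of mature pollen was made into stranded libraries with a TruSeq kit. The authors deposited read counts per feature, made with Trim Galore, STAR and HTSeq on build TAIR10, per the submitters' processing notes. Versions, settings and the counting strand: not given in the sources used here. The 5 summary lines were left out (reads in no feature 0.217 to 0.999%).

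Counts were fitted with edgeR 4.0.16 under R 4.3.3 (TMM, filterByExpr with minimum count 10 and total 15, robust quasi-likelihood fit, genotype plus batch, all 35 libraries) with calls at an adjusted p under 0.05 (Benjamini-Hochberg, all 12106 features). Replicates of a genotype differed beyond sampling noise. On simulated data for mbd5 mbd6 against wild-type over 12106 features, 62.7% of 1.5-fold, 79.1% of 2-fold and 98.5% of 4-fold changes were recovered. The changed features were drawn at random from all those tested, and each feature varied independently. The members are more abundant than most features and share a dependence on total counts, so these recoveries do not apply to them.

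Gene models, sequences, product names and translated coding regions came from RefSeq TAIR10.1, with Biopython 1.88. No protein table was used. Product names and translations stood in for it in the family rules.

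The members, gene lists and tests were chosen with earlier results of these data known. Named beyond the members are, per list, the 3 genes with the highest mean CPM and any called in at least 4 mutants, and the 5 features most like VGD1. PMEI2 was named after its value was seen.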

Additional observations from a re-analysis of the deposited data

Results flagged for a closer look

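In acd21.4, VGDH1 had 7116 CPM in replicate 4 and 7376 to 7434 CPM in the other libraries, a gap of 0.818 of the range, above the limit of 0.71 for 5 samples. It was 1 of 84 groups of 5 looked at, and chance alone flags about 1 in 20. VGDH1 ranged from 4560 to 8330 CPM over all 35 libraries.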

How the results depend on the processing

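For all 6 mutants the count of members called stayed at 0 under every alternative run: DESeq2 size factors, total-count scaling, no low-count filter, DESeq2, summed paralogs, the replicate block, only the groups compared, each batch alone, total count as a covariate and each library left out. Scaling by total counts alone, the total count as a covariate and the sum of PPME1 and AT5G07410 were chosen after seeing the data. Log2 changes against wild-type ranged from -0.24 to 0.32 over 1092 alternative values and none was called. The test for any genotype difference went from 0 to 1 member with total-count scaling (AT3G05610), with no low-count filter (AT2G26450) and over libraries left out one at a time (0 to 1). The cause was not tested. In the batch comparison 8 members were called in every fit that kept them as separate features, 6 of 6 features once paralogs were summed, and 7 of 8 with PPME1 and AT5G07410 summed. With each library left out in turn, the share of counts in the members stayed within 3.75 to 4.14% and 0 ratios of VGD1 to VGDH1 differed from wild-type. Replicate numbers do not pair the libraries: same-numbered libraries of different genotypes correlated at -0.46 to 0.42 (median -0.01). The fit with the replicate number as a block changed no call, with the lowest adjusted p for any genotype difference at 0.0683. Sampling of counts is no limit for the tested members, which had at least 2934 counts in every library, but it is for AT5G49180 with at most 5. The levels of most tested members did vary with the total count of the library, as given above.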
